A study of Mus musculus with 3 samples.

Results

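The 38 genes described here encode the contractile apparatus of striated muscle and were followed across freshly sorted and cultured muscle stem cells (MuSC, satellite cells). They were taken from a fixed list of sarcomere genes, each read through probe sets that the platform annotation gives to that gene alone, which left 72 probe sets for 38 genes out of 45037 probe sets and 18193 genes in all. Each condition was represented by 1 Affymetrix MOE_430_2 array of total RNA, 3 in all. +OSM MuSC were cultured for 3 days in 10% FBS with 100 ng/mL Oncostatin M, a cytokine of the interleukin-6 family. −OSM MuSC were cultured for 3 days in 10% FBS without Oncostatin M, and fresh MuSC were processed directly after isolation without culture. All cells came from muscle of wild-type C57BL/6 mice 8 weeks of age, sorted for CD34 and α7 integrin. The muscle had been digested with collagenase and dispase before the sort. The methods of the study describe MuSC culture on uncoated plastic and give another serum share for it than the labels do. Standard MuSC medium in the methods also held basic fibroblast growth factor, and the labels do not say whether these cultures had it. How many animals went into an array is not stated in the sources used here.

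Skeletal muscle contracts through sarcomeres, in which myosin thick filaments pull on actin thin filaments that are anchored in the Z-disc. Calcium binding to troponin C shifts the position of tropomyosin on the thin filament and opens the sites where myosin binds. Most of these proteins exist as fast, slow, cardiac and developmental isoforms, encoded by separate genes or made by alternative splicing, and embryonic and neonatal myosins precede the adult ones when muscle forms. Resting satellite cells have no sarcomeres, whereas myoblasts that commit to fusion turn sarcomere genes on.

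Promoter windows of 5 of these genes are shown because the expression results below turn on them: the fast and slow troponin C genes Tnnc2 and Tnnc1, the embryonic myosin gene Myh3, the skeletal actin gene Acta1 and the desmin gene Des. They were picked with their values in view. Each covers 250 bases before to 50 bases after a RefSeq start in build GRCm38.p6, written 5′ to 3′ on the strand of the gene. They lie at chr2:164779685-164779984 on the minus strand for Tnnc2, chr14:31208062-31208361 on the plus strand for Tnnc1, chr11:67078050-67078349 on the plus strand for Myh3, chr8:123894726-123895025 on the minus strand for Acta1 and chr1:75360042-75360341 on the plus strand for Des. Capitals mark E-boxes (CANNTG, the letters bound by myogenic factors such as MyoD and myogenin), TATAAA boxes, a CArG-like stretch (CC and GG with 6 bases of A or T between them) in Acta1 and a MEF2-like stretch (CTA and TAG with 4 bases between them) in Des.
Tnnc2: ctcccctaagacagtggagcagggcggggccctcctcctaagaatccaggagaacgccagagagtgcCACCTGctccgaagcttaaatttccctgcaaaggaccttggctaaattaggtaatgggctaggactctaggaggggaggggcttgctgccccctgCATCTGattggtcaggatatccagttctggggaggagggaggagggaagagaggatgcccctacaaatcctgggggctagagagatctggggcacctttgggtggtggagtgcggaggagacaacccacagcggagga
Tnnc1: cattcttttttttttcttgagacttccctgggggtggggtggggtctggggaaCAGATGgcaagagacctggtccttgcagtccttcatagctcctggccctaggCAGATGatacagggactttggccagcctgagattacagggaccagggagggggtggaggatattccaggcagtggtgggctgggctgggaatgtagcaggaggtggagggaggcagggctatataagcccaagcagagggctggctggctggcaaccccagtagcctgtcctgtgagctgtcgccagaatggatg
Myh3: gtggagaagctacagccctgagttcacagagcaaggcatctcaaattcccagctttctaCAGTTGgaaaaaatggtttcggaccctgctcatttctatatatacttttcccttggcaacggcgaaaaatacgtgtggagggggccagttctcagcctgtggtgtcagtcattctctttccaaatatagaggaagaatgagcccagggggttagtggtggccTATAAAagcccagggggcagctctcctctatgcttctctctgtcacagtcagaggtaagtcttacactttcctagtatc
Acta1: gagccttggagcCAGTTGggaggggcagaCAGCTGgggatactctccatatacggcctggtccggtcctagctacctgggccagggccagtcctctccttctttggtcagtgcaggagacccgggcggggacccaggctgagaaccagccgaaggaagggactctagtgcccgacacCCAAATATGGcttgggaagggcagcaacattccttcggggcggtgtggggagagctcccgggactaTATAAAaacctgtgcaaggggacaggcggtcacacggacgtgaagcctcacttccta
Des: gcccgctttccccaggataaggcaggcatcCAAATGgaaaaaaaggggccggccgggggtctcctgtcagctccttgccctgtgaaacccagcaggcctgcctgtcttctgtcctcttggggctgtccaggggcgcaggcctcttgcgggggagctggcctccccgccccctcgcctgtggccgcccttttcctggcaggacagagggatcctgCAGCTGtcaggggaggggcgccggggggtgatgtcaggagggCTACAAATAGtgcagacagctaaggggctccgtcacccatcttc

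Both strands were searched in 38 such windows that RefSeq gives for 31 of the 38 genes, some of which have more than 1 start. The genes not among the 31 are Actn3, Tnnt3, Tnni2, Neb, Myom2, Myoz1 and Tcap. An E-box was present in 33 of the 38 windows (86.8%), against 72.3% of all 32851 windows of the same length, and its CAGCTG form in 15 (39.5%), against 16.3%. The CArG-like stretch was found in 7 windows (18.4%), of Acta1, Actc1, Ldb3, Myh4, Myl3 and Myom1, against 1.63% of all windows. The MEF2-like stretch was found in 5 windows (13.2%), of Des, Ldb3, Myoz2 and Ttn, against 3.69%. TATAAA occurred in 11 windows (28.9%), against 13.6%, and these included Myh1, Myh2, Myh3, Myh4 and Myh8, whose genes are adjacent on chromosome 11 in the order Myh3, Myh2, Myh1, Myh4 and Myh8. A STAT-type site (TTC and GAA with 3 bases between them) was present in 1 window (2.63%), that of Myoz2, against 8.30% of all windows. A match says only that the letters are present, and CAGCTG matches are counted among the E-boxes as well.

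The deposited signals were scaled to a mean of 200 per array, trimmed by 2% at each end. The median of all signals, 40, served as a floor to which lower signals were raised before a ratio was taken. Before the fold of a single gene or probe set, the words "at least" mark that one signal had been raised. In counts of genes, "at least 2-fold" names the threshold only. A gene counts as measured in a comparison where it lay above 40 on at least 1 of the arrays compared. The highest signal on an array was 18071 in +OSM MuSC, 25588 in −OSM MuSC and 39631 in fresh MuSC, and the β-actin 3′ to 5′ control ratio was 1.41, 1.40 and 2.35 in the same order. With 1 array per condition analysed here, the spread between samples is unknown, nothing could be tested, and precision is limited by the number of arrays. The study mentions biological replicates behind its OSM regulation data, which were not analysed here. The RNA is of whole samples, so that fewer cells that express a gene cannot be told apart from less of its RNA per cell. Sorted identity was checked on 9 satellite cell markers, of which 7 lay above the floor in +OSM MuSC, 6 in −OSM MuSC and 9 in fresh MuSC, with Pax7 at 431, 282 and 4006. Of the antigens used in the sort, Cd34 had 15, 34 and 2222 in this order and Itga7, the α7 integrin gene, had 1238, 1808 and 499. Of the 9 markers, 7 were at least 2-fold lower in each culture than in fresh MuSC and 1, Itga7, was higher. Among all genes, 20.4% were lower and 15.0% higher in −OSM MuSC, and 17.2% lower and 13.8% higher in +OSM MuSC. Of 4 leukocyte markers, 0 lay above the floor in +OSM MuSC, 0 in −OSM MuSC and 1 in fresh MuSC.

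Sarcomere genes were lower in +OSM than in −OSM MuSC and far higher in both cultures than in fresh MuSC. In +OSM MuSC, 13 of 37 measured genes were at least 2-fold lower than in −OSM MuSC and 0 were higher, against 4.39% lower and 6.07% higher among all 11271 measured genes. The median log2 ratio was -0.88, or 1.84-fold lower, with single genes from -2.19 (Myl2, a bound) to 0.52 (Tpm3), whereas the median of all genes was -0.01. A signal below that of −OSM MuSC was read in 35 of the 37 genes, and the exceptions were Des and Tpm3. In −OSM MuSC, 33 of 38 genes were at least 2-fold higher than in fresh MuSC and 1 was lower, against 15.0% and 20.4% of all genes, with a median log2 ratio of 3.85, or 14.5-fold. In +OSM MuSC, 31 of 36 genes were at least 2-fold higher than in fresh MuSC and 0 were lower, against 13.8% and 17.2%, with a median log2 ratio of 2.74, or 6.67-fold. Any pair of these comparisons shares an array, so they are not independent. The counts over all genes moved with scaling more than those of the sarcomere genes did. With arrays scaled to a common median, 8.43% of all genes were higher and 3.24% lower with OSM than without, 28.2% higher and 12.1% lower in −OSM MuSC than in fresh MuSC, and 33.8% higher and 8.33% lower in +OSM MuSC than in fresh MuSC, whereas the sarcomere genes gave 14 lower, 34 higher and 32 higher in these comparisons. After quantile normalization the shares over all genes were 19.4% higher and 17.0% lower in −OSM MuSC and 17.1% higher and 14.1% lower in +OSM MuSC than in fresh MuSC.

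Markers of other cells differed between the arrays beside these results. The 5 fibroblast markers had summed signals of 8306 in +OSM MuSC, 2377 in −OSM MuSC and 27109 in fresh MuSC. Of these 5, 5, 2 and 5 lay above the floor, but Pdgfra and Lum were barely above it in +OSM MuSC, each at 43. Col3a1 made up most of the sum in both cultures, at 7683 with OSM and 2249 without, and Dcn had 373 in +OSM MuSC, 32 in −OSM MuSC and 12179 in fresh MuSC. With OSM over without, 3 of the 5 were at least 2-fold higher and 0 lower, against 6.07% and 4.39% of all genes. In −OSM MuSC 5 of 5 were at least 2-fold lower than in fresh MuSC, against 20.4%, and in +OSM MuSC 4 of 5, against 17.2%. The 5 endothelial markers had sums of 80, 91 and 1138, with 0, 1 and 3 above the floor. For 10 smooth muscle and pericyte markers the sums were 16284, 21899 and 11589, with 7, 6 and 9 above the floor. Acta2 made up most of each sum, at 13114, 19053 and 6543. Its probe set carries an s suffix, and skeletal Acta1 had 15326, 23868 and 4243 on the same arrays. Other smooth muscle and pericyte markers did not all follow Acta2. Pdgfrb had 738, 139 and 661 and Rgs5 had 59, 35 and 1687 in this order. Between −OSM MuSC and fresh MuSC, 3 of 9 measured were at least 2-fold higher and 3 lower, against 15.0% and 20.4% of all genes. With OSM over without, 1 of 7 was higher and 0 lower, against 6.07% and 4.39%. The part of these cells in the sarcomere readings was not tested.

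**Figure D1:**
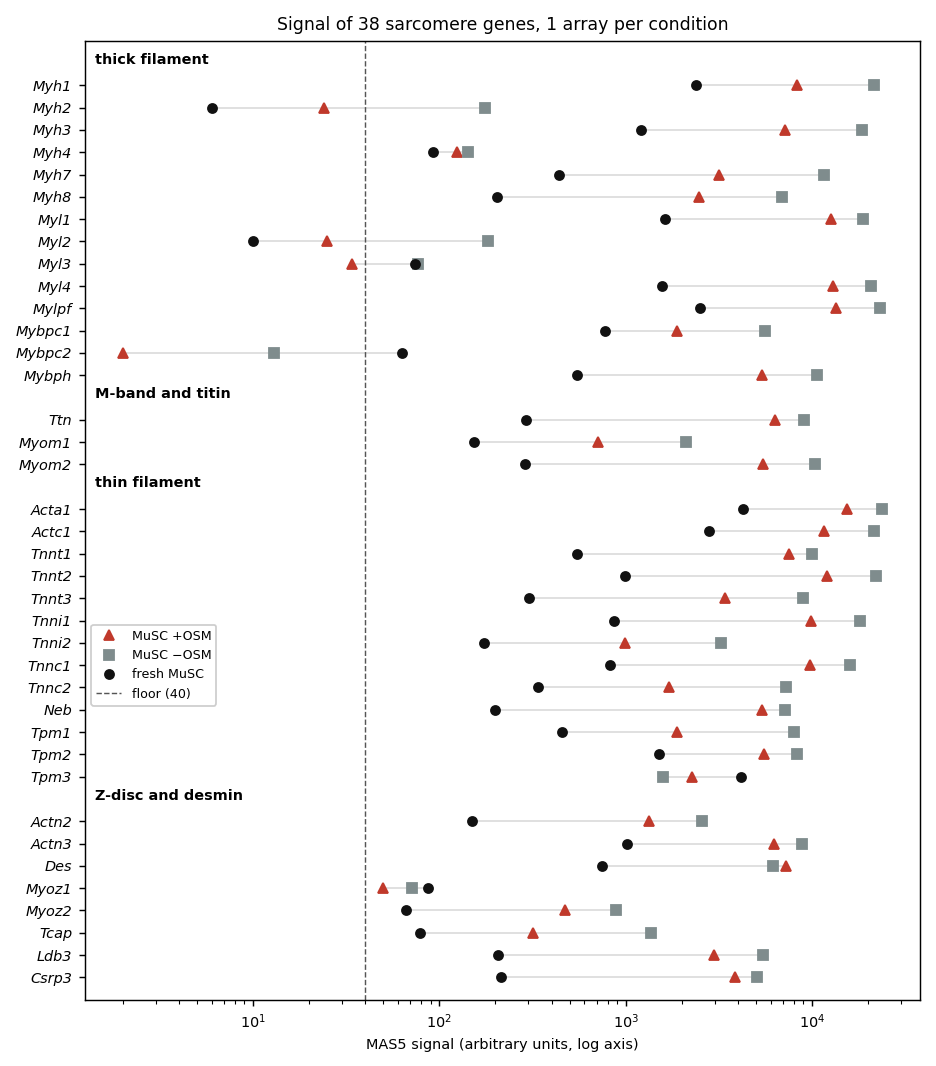
MAS5 signal (log axis, arbitrary units) of 38 sarcomere genes grouped by place in the sarcomere, with +OSM MuSC as red triangles, −OSM MuSC as gray squares and fresh MuSC as black circles, 1 array each. The floor of 40 is dashed. Most genes have the circle at the left and the square at the right with the triangle between, as for Neb at 5376 in +OSM MuSC, 7120 in −OSM MuSC and 199 in fresh MuSC, whereas Tpm3 had 2269, 1583 and 4181 in this order.

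Among myosin heavy chains, the motors of the thick filament, ratios of −OSM MuSC to fresh MuSC were 33.9 for the neonatal, 26.5 for the slow and 15.3 for the embryonic isoform. Myh3, the embryonic heavy chain, had a signal of 7204 in +OSM MuSC, 18555 in −OSM MuSC and 1214 in fresh MuSC, and was 2.58-fold lower with OSM than without. Myh8, the neonatal heavy chain, had 2465, 6912 and 204 on the same arrays and was 2.80-fold lower with OSM, but 12.1-fold higher with OSM than in fresh MuSC. Myh7, the slow and cardiac β heavy chain, had 3179 in +OSM MuSC, 11568 in −OSM MuSC and 437 in fresh MuSC, a 3.64-fold lower value with OSM. All of these were lowest on the fresh array and highest in −OSM MuSC. For Myh7, the 2 probe sets that the annotation shares with Myh6 were left out.

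Adult fast heavy chains gave less uniform readings. Myh1, of fast 2X fibres, read 8264 in +OSM MuSC, 21628 in −OSM MuSC and 2383 in fresh MuSC on its probe set of highest signal, whose x suffix marks probes that may also match other transcripts. The Myh1 probe set without a suffix had 37 in +OSM MuSC, 387 in −OSM MuSC and 6 in fresh MuSC, at least 9.68-fold lower with OSM. Another Myh1 probe set had 7418 in +OSM MuSC, 16688 in −OSM MuSC and 1277 in fresh MuSC, 2.25-fold lower with OSM. All 3 readings of Myh1 were lower with OSM, but the amount differed widely. Myh2, of fast 2A fibres, had 24 in +OSM MuSC, 176 in −OSM MuSC and 6 in fresh MuSC, so that only the culture without OSM lay above the floor and the value with OSM was at least 4.40-fold lower. Its ratio of −OSM MuSC to fresh MuSC is likewise only a bound, at least 4.40-fold, and cannot be ranked among the heavy chains. Myh4, of fast 2B fibres, had 124 in +OSM MuSC, 143 in −OSM MuSC and 93 in fresh MuSC, all within 2-fold.

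Of the myosin light chains, which bind the neck of the heavy chain, 3 were read well above the floor on every array and 2 were near it. Mylpf, the fast regulatory light chain, had 13476 in +OSM MuSC, 23045 in −OSM MuSC and 2499 in fresh MuSC. Myl1, the fast essential light chain, had 12607, 18797 and 1616 in this order, and Myl4, the embryonic and atrial essential chain, had 12954, 20848 and 1569. All 3 were lower with OSM by 1.49-fold to 1.71-fold, short of 2-fold, and were 9.22-fold to 13.3-fold higher in −OSM MuSC than in fresh MuSC. Myl2, the slow and ventricular regulatory chain, had 25 in +OSM MuSC, 182 in −OSM MuSC and 10 in fresh MuSC, at least 4.55-fold lower with OSM. Myl3, the slow and ventricular essential chain, had 34 in +OSM MuSC, 77 in −OSM MuSC and 74 in fresh MuSC, and was at least 1.93-fold lower with OSM.

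Myosin-binding proteins and M-band proteins hold the thick filaments in register. Mybpc1, the slow myosin-binding protein C, had 1887 in +OSM MuSC, 5624 in −OSM MuSC and 777 in fresh MuSC and was 2.98-fold lower with OSM, although its other probe sets read 1.08-fold and 1.09-fold lower. Mybph, myosin-binding protein H, had 5401, 10603 and 551 on these arrays, a 1.96-fold lower value with OSM. Mybpc2, the fast form, had 2 in +OSM MuSC, 13 in −OSM MuSC and 63 in fresh MuSC and was not measured between the cultures, while both cultures lay at least 1.57-fold below fresh MuSC. Myom1, or myomesin 1, had 706 in +OSM MuSC, 2108 in −OSM MuSC and 154 in fresh MuSC, which put it 2.99-fold lower with OSM. Myom2 had 5446, 10373 and 287 and was 1.90-fold lower with OSM. Yet it was 36.1-fold higher in −OSM MuSC than in fresh MuSC. On the probe set used for each gene, this was the highest ratio among those of the 38 genes that lay above the floor on both arrays. The Myom2 probe set used carries the x suffix, and its other measured probe sets read 53.3-fold and 27.3-fold. A titin probe set not used for the gene read 43.2-fold. Ttn, which encodes the giant elastic protein titin, had 6343 in +OSM MuSC, 9041 in −OSM MuSC and 292 in fresh MuSC and was 1.43-fold lower with OSM.

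Troponin genes differed by fibre type in how far their signals in +OSM MuSC lay under those in −OSM MuSC. The fast troponin C gene Tnnc2, whose promoter window is printed above, had 1716 in +OSM MuSC, 7251 in −OSM MuSC and 340 in fresh MuSC. The slow and cardiac troponin C gene Tnnc1 had 9791, 15902 and 824 in this order. With OSM Tnnc2 was 4.23-fold lower and Tnnc1 was 1.62-fold lower, whereas in −OSM MuSC over fresh MuSC they were 21.3-fold and 19.3-fold higher. Tnni2 and Tnni1 encode the fast and slow inhibitory subunits. Tnni2 had 992 in +OSM MuSC, 3261 in −OSM MuSC and 174 in fresh MuSC, a 3.29-fold lower value with OSM, and Tnni1 had 9882, 18097 and 867, a 1.83-fold lower value.

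Troponin T, which ties the complex to tropomyosin, ran the same way. Tnnt3, the fast form, had 3415 in +OSM MuSC, 8994 in −OSM MuSC and 302 in fresh MuSC and was 2.63-fold lower with OSM. Tnnt1, the slow form, had 7550, 10003 and 548 and was 1.32-fold lower, and Tnnt2, the cardiac and embryonic form, had 12079, 22093 and 989 and was 1.83-fold lower. Thus each of the 3 fast subunits passed 2-fold and none of the others did, a split that was seen on single arrays and not tested. A weaker Tnnt2 probe set was an exception, with 78 in +OSM MuSC, 209 in −OSM MuSC and 22 in fresh MuSC, 2.68-fold lower with OSM. On the probe set used for each gene, the 3 fast subunits also had lower signals than the slow and cardiac forms on every array. Fibre type and signal height therefore cannot be told apart in this split. The split did not extend to the heavy chains, where slow Myh7 was 3.64-fold lower with OSM. Nor did it hold for α-actinin, where the fast form Actn3 was 1.42-fold lower and Actn2 1.92-fold lower. On the chromosome, Tnni2 and Tnnt3 are separated by 1 protein-coding gene, and so are Tnni1 and Tnnt2.

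**Figure D2:**
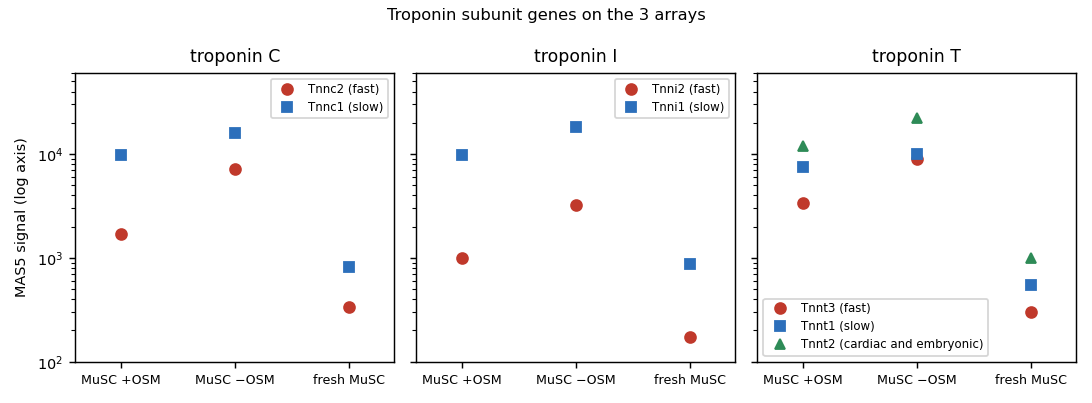
MAS5 signal (log axis) of 7 troponin genes on the 3 arrays, with +OSM MuSC, −OSM MuSC and fresh MuSC from left to right, fast forms as red circles, slow forms as blue squares and the cardiac and embryonic form as a green triangle. Red circles are farther apart between +OSM MuSC and −OSM MuSC than blue squares in each panel. Tnnc2, for example, had 1716 and 7251, beside Tnnc1 at 9791 and 15902. Heights of different genes are not to be compared as amounts of RNA, and the fast forms have the lower signals on every array.

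Actin forms the thin filament and nebulin runs along it, and their genes were higher in both cultures than in fresh MuSC. Acta1, skeletal α-actin, had 15326 in +OSM MuSC, 23868 in −OSM MuSC and 4243 in fresh MuSC, and Actc1, the cardiac α-actin of developing muscle, had 11647, 21413 and 2791. They were 1.56-fold and 1.84-fold lower with OSM. Neb, the nebulin gene, had 5376 in +OSM MuSC, 7120 in −OSM MuSC and 199 in fresh MuSC. It was 1.32-fold lower with OSM, and stood 27.0-fold higher with OSM and 35.8-fold higher without OSM than fresh cells. On the probe set used for each gene, Neb had the highest ratio of the 36 genes measured between +OSM MuSC and fresh MuSC. Ttn followed at 21.7-fold. Some other probe sets read above Neb, at 33.4-fold and 28.1-fold for Ttn and 30.4-fold for Myom2, while others of these genes read below it.

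Tropomyosin genes gave different readings from different probe sets. Their genes make muscle and non-muscle forms by alternative promoters and splicing, and a probe set reads only the forms that carry its sequence. For Tpm1 the probe set of highest signal had 1883 in +OSM MuSC, 7982 in −OSM MuSC and 457 in fresh MuSC, a 4.24-fold lower value with OSM. Another Tpm1 probe set had 423, 339 and 361 in this order, within 1.25-fold across the cultures, while the remaining ones were 2.43-fold and 5.35-fold lower with OSM. Tpm3 had 2269 in +OSM MuSC, 1583 in −OSM MuSC and 4181 in fresh MuSC on its strongest probe set, and was thereby 2.64-fold lower in −OSM MuSC than in fresh MuSC. Of its other probe sets, 2 also had their lowest signal in −OSM MuSC, but the last 2 had their highest signal there, with 306 in +OSM MuSC, 512 in −OSM MuSC and 99 in fresh MuSC on one of them. Tpm2 had 5520 in +OSM MuSC, 8351 in −OSM MuSC and 1506 in fresh MuSC, and its 4 probe sets were all lower with OSM, by 1.20-fold to 1.58-fold.

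Z-disc genes ran from Des, slightly higher with OSM, to Tcap, more than 4-fold lower. Des, the muscle intermediate filament that links Z-discs, had 7248 in +OSM MuSC, 6183 in −OSM MuSC and 744 in fresh MuSC. It was 1.17-fold higher with OSM and 8.31-fold higher in −OSM MuSC than in fresh MuSC, but a second, weaker probe set had 131, 68 and 416 in the same order and was 6.12-fold lower in −OSM MuSC than in fresh MuSC. Csrp3, muscle LIM protein, had 3867 in +OSM MuSC, 5074 in −OSM MuSC and 215 in fresh MuSC, 1.31-fold lower with OSM. At the other end stood Tcap, or telethonin, which caps titin in the Z-disc, with 318 in +OSM MuSC, 1361 in −OSM MuSC and 79 in fresh MuSC, a 4.28-fold lower value with OSM. Between them lay Ldb3, a PDZ and LIM protein that binds α-actinin, with 2996, 5456 and 207 (1.82-fold lower with OSM), and Myoz2, a calsarcin, with 474, 890 and 66 (1.88-fold lower). Myoz1, the fast calsarcin, had 50 in +OSM MuSC, 71 in −OSM MuSC and 87 in fresh MuSC, near the floor on every array. The α-actinin genes Actn2 and Actn3, which cross-link thin filaments in the Z-disc, had 1335, 2561 and 150 and 6259, 8857 and 1011 in this order.

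Set against each other by place in the sarcomere, thick filament genes were at least 2-fold lower with OSM in 7 of 13, with a median log2 ratio of -1.36. Thin filament genes were so in 4 of 13, with a median of -0.87, Z-disc genes in 1 of 8, with a median of -0.69, and M-band and titin genes in 1 of 3. In −OSM MuSC over fresh MuSC the medians were 3.19 for thick filament, 4.23 for thin filament, 3.92 for Z-disc and 4.95 for M-band and titin genes. By isoform, 5 of 10 fast, 3 of 9 slow and 2 of 5 embryonic or neonatal genes were at least 2-fold lower with OSM, with medians of -1.08, -0.91 and -0.88. Their medians in −OSM MuSC over fresh MuSC were 3.18, 3.75 and 3.93. Among all measured genes, 4.39% were at least 2-fold lower with OSM. Values within each class spread over more than the classes differ, and no difference between classes was tested.

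**Figure D3:**
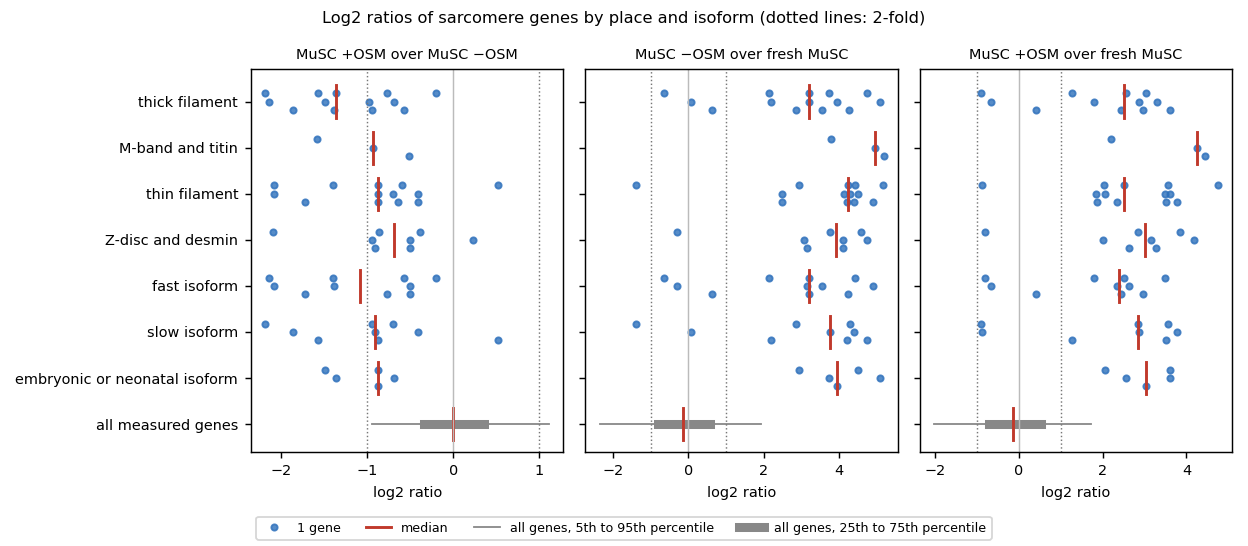
Log2 ratios of sarcomere genes by place and by isoform in the 3 comparisons, with each gene as a blue point, medians as red bars, all measured genes as gray bars from the 25th to the 75th percentile and lines from the 5th to the 95th, and dotted lines at 2-fold. Points lie mostly below 0 for +OSM MuSC over −OSM MuSC, with the thick filament median at -1.36, and well above 2-fold for both cultures over fresh MuSC.

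Differences between the cultures also went with signal height. Among the 37 genes measured in this comparison, of which Myh2, Myl2 and Myl3 lay under the floor in +OSM MuSC, the 18 with a mean signal above 4237 over the 3 arrays had a median value 1.67-fold lower with OSM, and 3 of them passed 2-fold. The other 19 had a median 2.63-fold lower, and 10 of them passed. In −OSM MuSC 14 genes had signals above 10000, up to 23868 for Acta1, on an array whose highest signal was 25588, against 6 in +OSM MuSC and 0 in fresh MuSC. The part of signal height in these folds was not tested.

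Of the 38 genes, 23 had 1 probe set and 15 had several. Among genes at least 2-fold lower with OSM, 4 had other measured probe sets, and 5 of these 8 were also at least 2-fold lower while 7 were lower to some degree. For genes at least 2-fold higher in −OSM MuSC than in fresh MuSC, 20 of 23 other probe sets were at least 2-fold higher. Titin showed the spread within 1 gene, since 5 of its 6 probe sets were measured and ranged from 1.04-fold to 2.68-fold lower with OSM. A probe set of Myl4 went the other way than its strong one, with 326 in +OSM MuSC, 193 in −OSM MuSC and 64 in fresh MuSC.

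**Figure D4:**
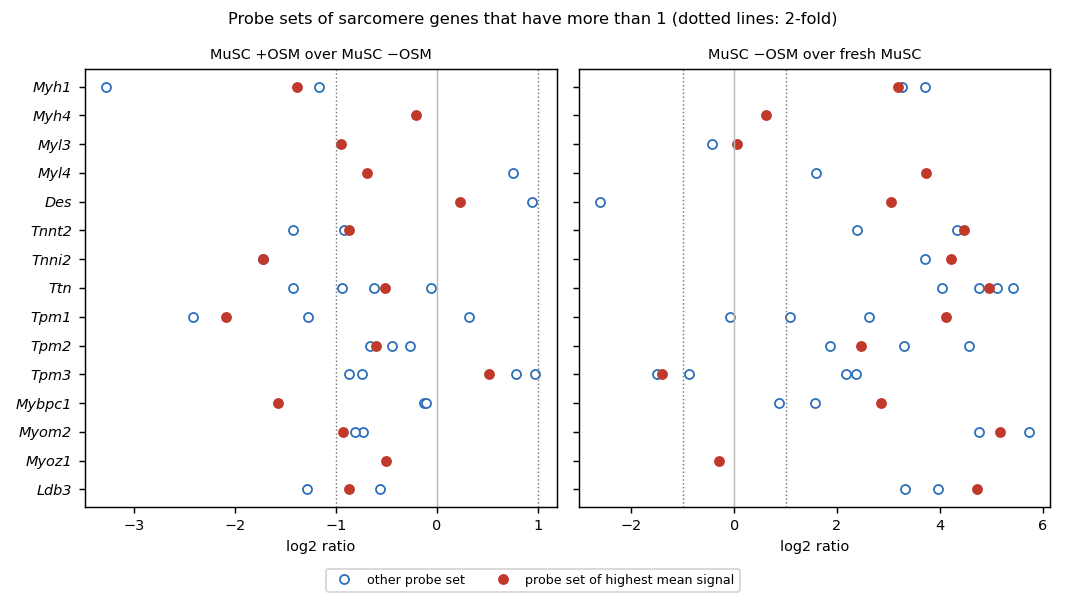
Log2 ratios of every measured probe set of the 15 sarcomere genes with more than 1 probe set, for +OSM MuSC over −OSM MuSC at left and −OSM MuSC over fresh MuSC at right, with the probe set used for the gene in red, other probe sets as open circles and dotted lines at 2-fold. Probe sets of Tpm1, Tpm3, Des and Myl4 lie on different sides of 0 or far apart, whereas those of Tnni2 and Myom2 lie close together at left.

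Other genes of the sarcomere outside the 38 were also lower with OSM. Among 23 that were measured, 15 lay at least 2-fold lower in +OSM than in −OSM MuSC and 0 were higher. Of all measured genes, 4.39% were lower and 6.07% higher. The median log2 ratio of the 23 was -1.21. Ankrd2, a stretch-responsive ankyrin repeat protein, had 102 in +OSM MuSC, 430 in −OSM MuSC and 31 in fresh MuSC. Nrap, which helps to assemble myofibrils, had 632, 2362 and 104, and Xirp1, an actin-binding protein of muscle, had 412, 1370 and 11. Synpo2, a Z-disc protein that binds actin, had 878 in +OSM MuSC, 3096 in −OSM MuSC and 307 in fresh MuSC.

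Genes for assembly and turnover of the sarcomere gave 6 of 9 at least 2-fold lower and 0 higher with OSM. The shares of all genes were 4.39% and 6.07%, and the median log2 ratio of the 9 was -1.16. Fhod3, a formin needed for myofibrils, had 138 in +OSM MuSC, 789 in −OSM MuSC and 18 in fresh MuSC and was 5.72-fold lower with OSM. Klhl41, a Kelch protein that stabilizes nebulin, had 2661, 7954 and 242, and Hspb7, a small heat shock protein, had 342, 1171 and 39. Trim63, the ubiquitin ligase MuRF1, had 592 in +OSM MuSC, 1752 in −OSM MuSC and 52 in fresh MuSC. All 9 genes were at least 2-fold higher in each culture than in fresh MuSC. Of all measured genes, 15.0% were so in −OSM MuSC and 13.8% in +OSM MuSC.

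Transcription factors that act on sarcomere genes were mostly within 2-fold between the cultures. In their list 8 of 9 measured genes were so, beside 24 of 37 sarcomere genes and 10092 of 11271 genes in all. Mef2c had 1941 in +OSM MuSC, 3294 in −OSM MuSC and 172 in fresh MuSC, and Mef2a had 4723, 8838 and 1374. Mymk, the fusion protein myomaker that was listed with them, had 1547, 2673 and 94. With OSM, Mef2c was 1.70-fold, Mef2a 1.87-fold and Mymk 1.73-fold lower, beside a median of 1.84-fold for the sarcomere genes. Of 9 measured myogenic and MEF2 genes, 6 read lower and 3 higher with OSM to some degree. At least 2-fold lower were 0 of them and 1 was higher, against 4.39% and 6.07% of all genes. The higher one was Myf5, with 1855 in +OSM MuSC, 561 in −OSM MuSC and 7016 in fresh MuSC. Myog, or myogenin, named here after its values were seen, had 14369 in +OSM MuSC, 21248 in −OSM MuSC and 1530 in fresh MuSC and was 1.48-fold lower with OSM.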

How the data were processed

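Total RNA of MuSC was amplified with Affymetrix 3′ IVT reagents and hybridized to 3 MOE_430_2 arrays. The authors deposited MAS5 signal intensity on a linear scale; no source used here gives the MAS5 version. Conditions came from the sample labels, and columns were matched by sample. After 64 control probe sets were left out, ratios were taken with pandas 2.3.3 and numpy 2.4.6 (Python 3.11.15). The probe set with the highest mean over the 3 arrays stood for its gene. Probe sets annotated to several genes (932) or to none (9160) were not used. Signals were raised to a floor of 40, a gene was measured where 1 of both arrays compared lay above it, and 2-fold was the threshold. All 38 genes matched the RefSeq table by gene ID. The ratio steps were tested on simulated data. Named genes are all members, and of each other list up to 4 measured genes with the largest absolute log2 ratio of MuSC +OSM over MuSC −OSM, in either direction, and a signal of at least 200 on 1 array. Marker lists are given mainly as sums. Members and lists were chosen with earlier results of these data known. Other scalings, floors, probe set choices and fold thresholds were tried.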

Additional observations from a re-analysis of the deposited data

How the results depend on the processing

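The number of genes at least 2-fold lower in +OSM than in −OSM MuSC, 13 (4.39% of all genes), was 27 with a 1.5-fold threshold and 7 with a 3-fold one, where 13.1% and 1.21% of all genes were lower. It was 11 to 15 under the other alternatives, with 0 higher throughout, while the share of all genes was 10.7% with a floor at the 25th percentile, 17.2% without a floor and 1.79% with the mean of all probe sets. In −OSM MuSC over fresh MuSC, the count of lower genes, 1, was 0 with arrays scaled to a common median, with the mean of all probe sets, without probe sets that carry a suffix and at 3-fold (12.1%, 10.7%, 21.1% and 10.8% of all genes), and 2 with a floor at the 25th percentile, without a floor and at 1.5-fold (26.9%, 29.8% and 31.8%). In +OSM MuSC over fresh MuSC, the count of lower genes, 0, was 1 after quantile normalization, 2 with a floor at the 25th percentile, 2 without a floor and 4 at 1.5-fold (14.1%, 26.8%, 31.4% and 29.6% of all genes). Scaling to a common median put the median log2 ratio at 4.41 for −OSM MuSC over fresh MuSC and at 3.47 for +OSM MuSC over fresh MuSC, where it put the median of all genes at 0.37 and 0.57. The choice of probe sets changed the sign of log2 ratios of Tpm1, Tpm3, Myl4 and Myl3. Without suffixed probe sets, which leaves 32 of the 38 genes, Tpm1 went to 0.32 in +OSM MuSC over −OSM MuSC and to -0.091 in −OSM MuSC over fresh MuSC. Tpm3 went to -0.86 in +OSM MuSC over −OSM MuSC, 2.17 in −OSM MuSC over fresh MuSC and 1.31 in +OSM MuSC over fresh MuSC. With the mean of all probe sets, Tpm3 went to 0.15 in −OSM MuSC and 0.29 in +OSM MuSC over fresh MuSC, Myl4 to 0.035 in +OSM MuSC over −OSM MuSC, and Myl3 to -0.13 in −OSM MuSC over fresh MuSC. Myoz1 in −OSM MuSC over fresh MuSC, -0.29, was 0.26 with a common median and 0.25 after quantile normalization. The causes were not tested. No paired analysis was possible because each condition has 1 array.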

Other observations

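Cytoplasmic counterparts of the sarcomere proteins, the actins, myosins and tropomyosins that non-muscle cells use, were called at about the rate of all genes. Of 13 such genes, 0 were at least 2-fold lower in +OSM than in −OSM MuSC and 1 was higher, against 4.39% lower and 6.07% higher among all genes, with a median log2 ratio of 0.06. Their difference from the sarcomere genes was not tested. Tpm4, a non-muscle tropomyosin, was the higher gene, with 3828 in +OSM MuSC, 1645 in −OSM MuSC and 3507 in fresh MuSC. Flna, the actin cross-linker filamin A, had 918, 575 and 1024 in this order, and Tmod3, which caps actin filaments, had 383, 212 and 470. Myl12a, a regulatory light chain of non-muscle myosin, had 10588 in +OSM MuSC, 17160 in −OSM MuSC and 9910 in fresh MuSC, 1.62-fold lower with OSM.

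Genes of the mature fibre outside the sarcomere gave 3 of 12 at least 2-fold lower and 1 higher in +OSM MuSC than in −OSM MuSC. Among all genes the shares were 4.39% and 6.07%, and the median log2 ratio of these 12 was -0.77. Casq1, the calcium buffer calsequestrin of the sarcoplasmic reticulum, read 138 in +OSM MuSC, 1011 in −OSM MuSC and 80 in fresh MuSC, 7.33-fold lower with OSM. Cacna1s, the calcium channel of the T-tubule, had 335 in +OSM MuSC, 834 in −OSM MuSC and 37 in fresh MuSC. Cox6a2, a muscle subunit of cytochrome c oxidase, had 805, 1836 and 187, and Mb, myoglobin, had 7310, 13170 and 632. The higher gene was Pvalb, which encodes the calcium buffer parvalbumin and is named after its values were seen, with 166 in +OSM MuSC, 6 in −OSM MuSC and 52 in fresh MuSC.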
